A study of Mus musculus with 20 samples.

Results

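The genes described here are the matrix metalloproteinases (Mmp), the membrane-anchored ADAM proteases (Adam), the secreted ADAMTS proteases (Adamts) and the tissue inhibitors of metalloproteinases (Timp). They were chosen by gene symbol, as every symbol made of 1 of these 4 names, a number and at most 1 letter. Of the 19940 genes in the expression table, 52 had such a symbol: 16 Mmp, 15 Adam, 17 Adamts and 4 Timp genes. The mouse annotation (GENCODE release 21 of the M series, GRCm38) holds 79 such symbols. The samples were kidneys of 20 male mice, 1 library per mouse. They formed 4 groups of 5: Tert+/+ mice aged 7 weeks (young), generation 3 (G3) Tert-/- mice aged 7 weeks, Tert+/+ mice aged 47 weeks (old) and G3 Tert-/- mice aged 47 weeks. Tert codes for the catalytic protein of telomerase, the enzyme that extends telomeres, and telomeres shorten over generations of Tert-/- breeding. Folic acid stands in the title of the series, but the labels of these 20 samples name no agent. Strain, litter and the deleted part of Tert are not given in the sources used here. p-values set differences between groups against the spread between mice within groups, pooled over the 4 groups.

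Metalloproteinases are zinc-dependent enzymes made as inactive precursors and switched on when their prodomain is removed. Mmp and Adamts enzymes cut collagens, proteoglycans and other matrix proteins, whereas Adam enzymes mostly release the outer parts of membrane proteins such as growth factors, cytokines and Notch receptors. Timp proteins bind the active site and hold these enzymes in check, so in kidney the balance of both is studied in matrix turnover, tubular injury and scarring.

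Libraries were prepared from the 3′ ends of polyadenylated RNA and held 7161690 to 9757594 reads. Values are read counts normalized by 1 factor per library. The 9 listed markers of proximal tubule were all present, with a summed level of 43712 to 64998 over the 20 libraries. All 7 listed markers of podocytes were present too. Summed fat cell markers were uneven, at 169 to 3619 in young Tert+/+ and 273 to 9543 in young G3 Tert-/- kidneys. In old kidneys they were 178 to 956 in Tert+/+ and 273 to 3585 in G3 Tert-/- mice. Star, an adrenal cortex marker, reached 460 in young Tert+/+ kidneys, where its median was 8.86. The part of such tissue in the values was not tested. Markers of sperm-forming cells, which express many Adam genes, were absent from the table (0 of 8). Tert itself was counted at a median of 10.2 in young Tert+/+, 2.14 in young G3 Tert-/-, 11.7 in old Tert+/+ mice and 8.08 in old G3 Tert-/- mice. A 3′ count can lie outside the deleted part, so it does not check the genotype. Replicate 1 of young Tert+/+ and replicate 4 of old Tert+/+ stood apart on the first principal component (67.5 and 56.6 against -39.4 to 21.01 in the other 18). Called changes of tested Mmp, Adam, Adamts and Timp genes are therefore also given without both. Calls on other genes and on genes of low count are not.

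Promoters are shown for genes with the smallest p in the age effect averaged over genotypes, a contrast added after the data were seen. They belong to 4 of the 5 such genes, all with lower means in old kidneys: Adamts2, Timp3, Adamts12 and Adamts9. Adamts12 and Adamts9 did not pass in that contrast. The other gene is Adam12, which had no window in the source used. Adamts15, called within G3 Tert-/- mice, had none either. Each run is 300 bases from RefSeq (GRCm38.p6), from 250 before to 50 after the transcription start, on the strand of the gene. Adamts2 is at chr11:50601835-50602134 (+), Timp3 at chr10:86300162-86300461 (+), Adamts12 at chr15:11064523-11064822 (+) and Adamts9 at chr6:92943485-92943784 (-). Capitals mark matches to 5 motifs, searched on both strands, and no matches overlapped. The letters of the GC box were GGGCGG. Those of the CCAAT box were CCAAT. For the TATA box they were TATAAA. For the AP-1 site, which many Mmp promoters carry, they were TGANTCA. The E-box, a motif bound by repressors of epithelial genes, was read as CAGGTG.
Adamts2: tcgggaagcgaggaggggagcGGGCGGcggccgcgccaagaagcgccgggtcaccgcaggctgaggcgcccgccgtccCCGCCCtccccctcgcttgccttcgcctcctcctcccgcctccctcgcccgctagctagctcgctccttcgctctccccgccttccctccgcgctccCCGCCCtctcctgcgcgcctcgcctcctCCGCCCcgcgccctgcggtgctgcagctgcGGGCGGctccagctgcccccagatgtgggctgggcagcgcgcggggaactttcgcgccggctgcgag
Timp3: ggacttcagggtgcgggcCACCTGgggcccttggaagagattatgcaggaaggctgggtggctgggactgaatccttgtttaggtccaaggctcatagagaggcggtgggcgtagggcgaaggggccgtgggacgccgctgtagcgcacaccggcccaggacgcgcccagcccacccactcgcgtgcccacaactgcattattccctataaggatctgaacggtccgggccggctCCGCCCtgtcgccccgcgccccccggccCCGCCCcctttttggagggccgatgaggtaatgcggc
Adamts12: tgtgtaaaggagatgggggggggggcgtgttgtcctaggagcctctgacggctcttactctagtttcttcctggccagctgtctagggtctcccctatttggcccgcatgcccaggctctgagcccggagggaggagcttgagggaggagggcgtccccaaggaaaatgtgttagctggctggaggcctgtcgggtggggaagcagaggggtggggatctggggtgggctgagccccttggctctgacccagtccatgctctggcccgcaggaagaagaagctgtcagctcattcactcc
Adamts9: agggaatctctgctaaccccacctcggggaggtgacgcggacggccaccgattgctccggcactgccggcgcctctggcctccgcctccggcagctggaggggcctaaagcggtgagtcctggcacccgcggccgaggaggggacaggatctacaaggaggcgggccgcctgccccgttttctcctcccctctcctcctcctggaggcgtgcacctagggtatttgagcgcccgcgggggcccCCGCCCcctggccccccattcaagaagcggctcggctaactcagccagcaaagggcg
The Adamts2 window held 5 GC boxes and a GC content of 77.3%, against a median of 52.7% over all windows. The Timp3 window held 2 GC boxes and 1 E-box, Adamts9 held 1 GC box, and Adamts12 held none of the 5 motifs. Of all 32851 windows in the RefSeq table, 35.7% held a GC box, 37.4% a CCAAT box, 13.6% a TATA box, 7.81% an AP-1 site and 20.2% an E-box. For the 37 windows of 32 of these genes, the shares were 56.8%, 35.1%, 16.2%, 13.5% and 21.6%. A match describes letters and shows no bound factor.

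Of the 52 genes, 29 reached a normalized count of 10 in at least 5 libraries and were tested: 7 Mmp, 10 Adam, 10 Adamts and 2 Timp genes. Of the other 23, 14 did not reach 10 in any library and 9 did so in 1 to 4. The filter fell between Adamts7, with a mean of 8.19 and outside it, and a lowest mean of 8.20 inside it. Of the Mmp genes often studied in injured kidney, Mmp2, Mmp13 and Mmp14 were tested, and Mmp3, Mmp7, Mmp9 and Mmp12 were not. 3′ counts are not scaled by gene length, so levels were not ranked between genes.

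**Figure D1:**
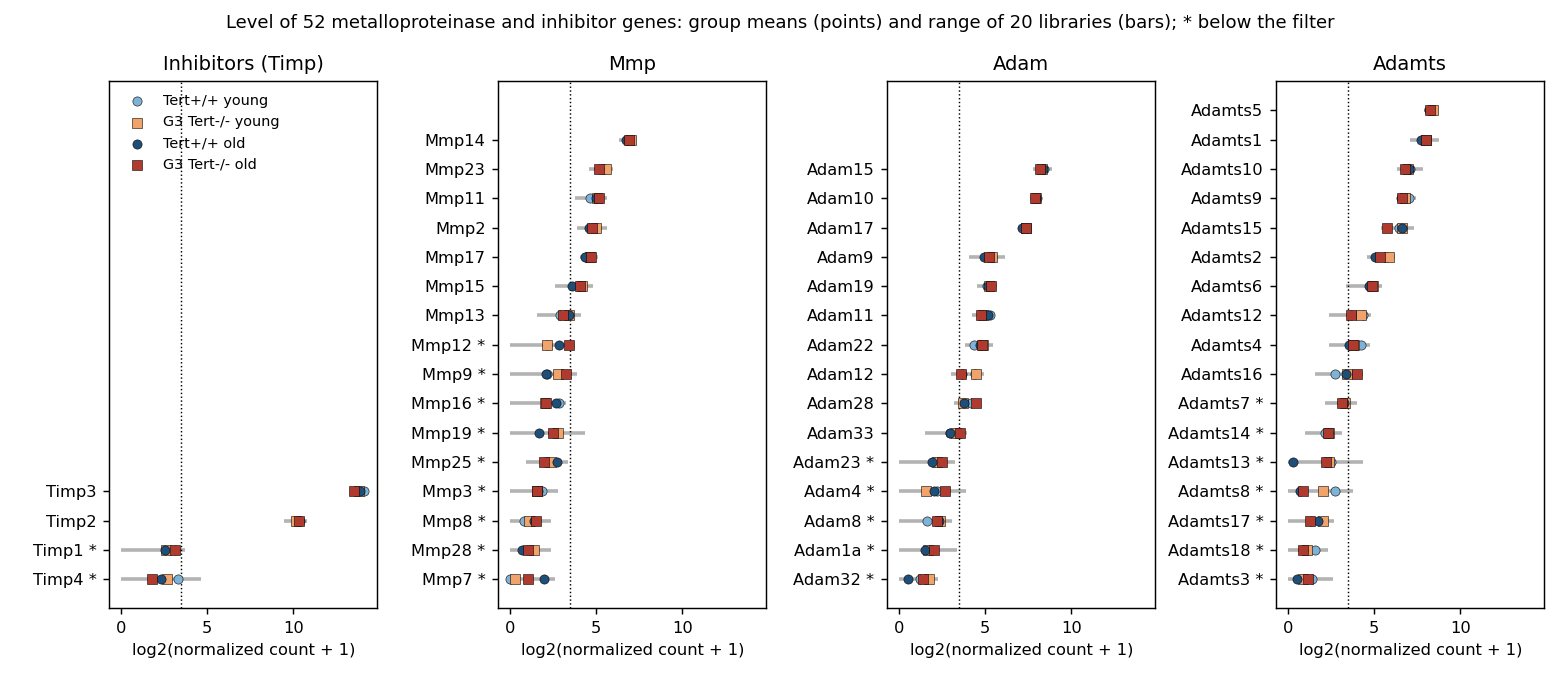
Level of each of the 52 genes, by family, as log2(normalized count + 1). Points are means of 5 mice in the 4 groups, grey bars span the 20 libraries, the dotted line is a count of 10 and an asterisk marks the 23 genes below the filter; group means lie close together for most genes beside the range of libraries.

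With age, several members had lower means in old kidneys of both genotypes. In the age effect averaged over genotypes, a contrast added after the data were seen, Adam12, Adamts2 and Timp3 fell (3 of 29 genes, where 4.49% of all tested genes passed and 2.43% passed as lower). None rose. Log2 fold changes were -0.80 for Adam12 (SE 0.19, adjusted p = 0.0170), -0.63 for Adamts2 (SE 0.16, adjusted p = 0.0201) and -0.27 for Timp3 (SE 0.07, adjusted p = 0.0342), in limma with Benjamini-Hochberg adjustment over the 14630 tested genes. Within Tert+/+ mice alone no member passed (0.649% of all tested genes did), and within G3 Tert-/- mice 1 did, Adamts15, which fell (2.24% of all tested genes passed and 1.31% passed as lower). Lower fitted values in old mice were found for 22 of 29 members in Tert+/+ (49.3% of all tested genes) and 20 of 29 in G3 Tert-/- (49.5%). Their median log2 fold change was -0.16 and -0.12, against 0.00 over all tested genes in both genotypes. An unadjusted p under 0.05 was reached by 5 members in Tert+/+ (10.6% of all tested genes) and by 6 in G3 Tert-/- (14.9%).

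Genotype gave no call among the 29 members. No member passed between old G3 Tert-/- and old Tert+/+ kidneys, where 0.0957% of all tested genes did, and none passed at 7 weeks, where 0% did. At an unadjusted p under 0.05 the counts were 3 at 47 weeks (6.58% of all tested genes) and 2 at 7 weeks (10.7%). DESeq2 and edgeR on whole reads also called 0 at each age. At each age 11 of 29 members had lower fitted values in G3 Tert-/- and 18 higher (47.9% of all tested genes were lower at 47 weeks and 49.8% at 7 weeks), with a median log2 fold change of 0.13 at 47 weeks and 0.09 at 7 weeks. The interaction, which tests whether the genotype effect differs between ages, also gave no call (0.00684% of all tested genes), with 3 members at an unadjusted p under 0.05 (6.22% of all tested genes).

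**Figure D2:**
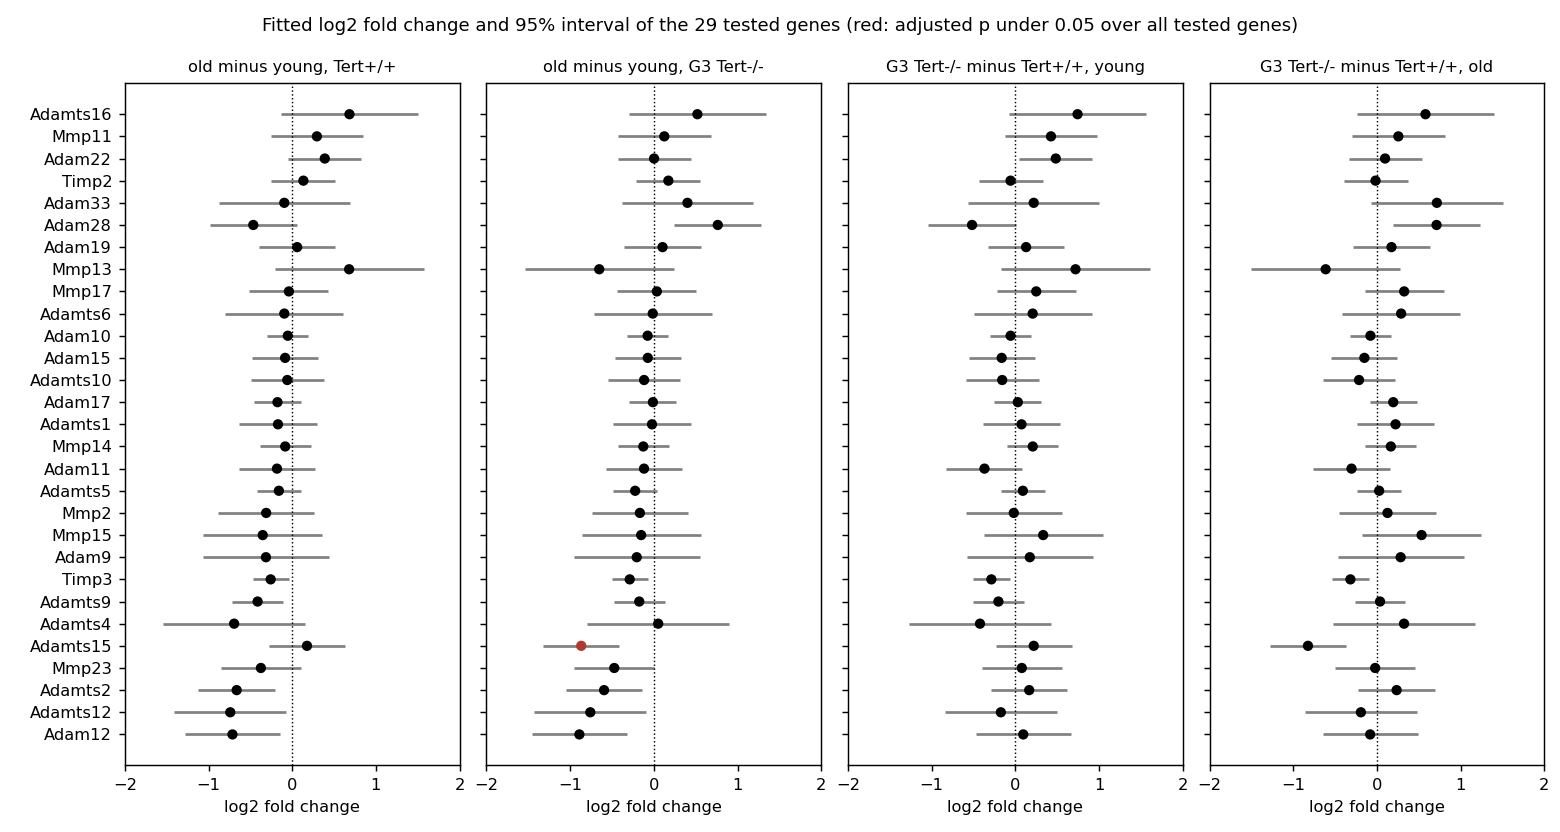
Fitted log2 fold change (points) and 95% interval (lines) of the 29 tested genes in 4 comparisons, ordered by the age effect averaged over genotypes. Adamts15 in old against young G3 Tert-/- mice, in red, is the single value with an adjusted p under 0.05 in these 4 panels, and Adam12, Adamts12, Adamts2 and Timp3 lie left of 0 in both age panels.

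Timp3, the inhibitor that binds to the matrix and blocks Adam17 and the Adamts proteases as well as Mmp enzymes, was high in every kidney. The gene lies on chromosome 10, 86300372 to 86349506 on the plus strand (ENSMUSG00000020044), and overlaps Syn3 on the opposite strand. The libraries keep strand and the labels' protocol names a stranded setting for counting, without which reads of the pair could not be told apart. In young Tert+/+ kidneys its normalized counts were 18533, 17241, 15784, 18358 and 18485, and in old Tert+/+ kidneys 15533, 13602, 14047, 15437 and 15320. In young G3 Tert-/- kidneys they were 15331, 15990, 13507, 11599 and 16472, and in old G3 Tert-/- kidneys 11313, 11872, 12546, 12004 and 11544. By their means, young Tert+/+ kidneys were highest and old G3 Tert-/- kidneys lowest, with the other groups between them. Old Tert+/+ did not overlap young Tert+/+, old G3 Tert-/- did not overlap old Tert+/+, and the other neighbouring groups overlapped.

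The Timp3 means were 17680 ± 1186, 14580 ± 2011, 14788 ± 897 and 11856 ± 472 (SD, n = 5) in young Tert+/+, young G3 Tert-/-, old Tert+/+ and old G3 Tert-/- kidneys. With age the mean changed to 0.836 times the young level in Tert+/+ (log2 fold change -0.26, adjusted p = 0.356) and to 0.813 times in G3 Tert-/- (-0.29, adjusted p = 0.180). Against Tert+/+, G3 Tert-/- kidneys held 0.825 times the level at 7 weeks (-0.29, adjusted p = 0.435) and 0.802 times at 47 weeks (-0.32, adjusted p = 0.502). The interaction was -0.03 with a 95% interval from -0.34 to 0.28. The genotype effect averaged over ages, also added after the data were seen, was -0.30 (SE 0.07), with an unadjusted p of 0.00047 and an adjusted p of 0.153 in limma. DESeq2 gave an adjusted p of 0.00458 for it, so that call depends on the tool. Over all tested genes DESeq2 called 56 in this contrast, and limma called 4 (0.0273%). The age call on Timp3 was lost with no filter on low values (adjusted p = 0.0705) and when any of 12 single libraries was left out (up to 0.0734). These were young Tert+/+ replicates 4 and 5, young G3 Tert-/- replicates 1, 2 and 5, old Tert+/+ replicates 2, 3 and 5, and old G3 Tert-/- replicates 1, 2, 4 and 5. Without both libraries that stand apart it was -0.27 (adjusted p = 0.0276).

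Timp2, which inhibits Mmp enzymes and also takes part in the activation of Mmp2 by Mmp14, did not pass in any comparison. Its counts ranged from 689.8 to 1529 in young Tert+/+, 840.4 to 1364 in young G3 Tert-/-, 1016 to 1752 in old Tert+/+ mice and 1061 to 1491 in old G3 Tert-/- mice, and all groups overlapped. The age effect averaged over genotypes was 0.15, with an interval from -0.12 to 0.42. A same-strand gene, Cep295nl, overlaps Timp2, so reads may be shared. Timp1, the inhibitor classically induced in injured kidney, was low, with group means of 7.61 ± 3.22 in young Tert+/+, 5.04 ± 3.94 in young G3 Tert-/-, 4.79 ± 4.22 in old Tert+/+ mice and 7.81 ± 2.48 in old G3 Tert-/- mice. Timp4 was also low, from 8.85 ± 9.66 in young Tert+/+ to 2.47 ± 1.99 in old G3 Tert-/- kidneys, with values from 0.964 to 23.6 within young Tert+/+ alone. Neither reached the filter, and their groups overlapped in all 4 comparisons of genotype or age.

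Adamts2 is the procollagen N-proteinase, which trims fibrillar procollagens before they assemble, and lies on chromosome 11, 50602084 to 50807573 (+). Its GC-rich promoter is the first of the windows above. Counts were 46.3, 73.3, 39.1, 53.6 and 46.3 in young Tert+/+ and 22.8, 29.6, 40.9, 28.2 and 40.1 in old Tert+/+ kidneys. They were 57.2, 65.6, 69.7, 38.2 and 58.95 in young G3 Tert-/- and 33.8, 26.6, 42.6, 33.7 and 55.6 in old G3 Tert-/- kidneys. Old values were mostly lower than young values in both genotypes, but at least 1 kidney crossed over in each. The log2 fold change was -0.66 in Tert+/+ (adjusted p = 0.217) and -0.59 in G3 Tert-/- (adjusted p = 0.188). The averaged fall held in each of the 20 leave-one-out fits (adjusted p from 0.00871 to 0.0443) and without both libraries that stand apart (-0.62, adjusted p = 0.0243). Between genotypes the averaged effect was 0.20, with an interval from -0.12 to 0.52.

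Adam12, a protease of mesenchymal and regenerating cells that can release heparin-binding growth factor, lies on chromosome 7, 133883199 to 134232146 (-). Its counts were 20.7, 27.0, 24.5, 11.1 and 16.8 in young Tert+/+ and 13.5, 7.88, 12.7, 13.5 and 10.01 in old Tert+/+ kidneys. In G3 Tert-/- kidneys they were 12.7, 29.4, 21.7, 20.8 and 21.4 when young and 13.7, 7.16, 14.5, 10.2 and 9.09 when old. All 10 old kidneys were at or under 14.5, and 1 young kidney of each genotype fell among them. The log2 fold change was -0.71 in Tert+/+ (adjusted p = 0.321) and -0.89 in G3 Tert-/- (adjusted p = 0.0978). The averaged fall passed in each leave-one-out fit (adjusted p from 0.00749 to 0.0409) and was -0.82 without both libraries that stand apart (adjusted p = 0.0209). The averaged genotype effect was 0.01, with an interval from -0.40 to 0.41.

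Adamts12, a secreted protease that cuts cartilage oligomeric matrix protein, did not pass in any comparison. Its counts were 17.7, 21.2, 18.6, 19.4 and 21.03 in young Tert+/+ and 8.29, 12.8, 15.6, 12.4 and 8.90 in old Tert+/+ kidneys, with no overlap. In G3 Tert-/- kidneys they were 13.6, 16.6, 27.3, 13.3 and 18.2 when young and 15.8, 21.5, 8.31, 4.09 and 7.07 when old, with overlap. The averaged age effect was -0.75 (SE 0.23, adjusted p = 0.0637). Adamts9, which cuts versican, was 106 to 174 in young Tert+/+ and 84.5 to 100.5 in old Tert+/+ kidneys, again with no overlap (-0.41, adjusted p = 0.269). In G3 Tert-/- kidneys its values overlapped, at 97.9 to 134 when young and 80.8 to 110 when old. With Timp3, these were the 3 of 29 tested members whose old and young Tert+/+ groups did not overlap, each lower in old mice (1.25% of all tested genes did so in that direction).

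**Figure D3:**
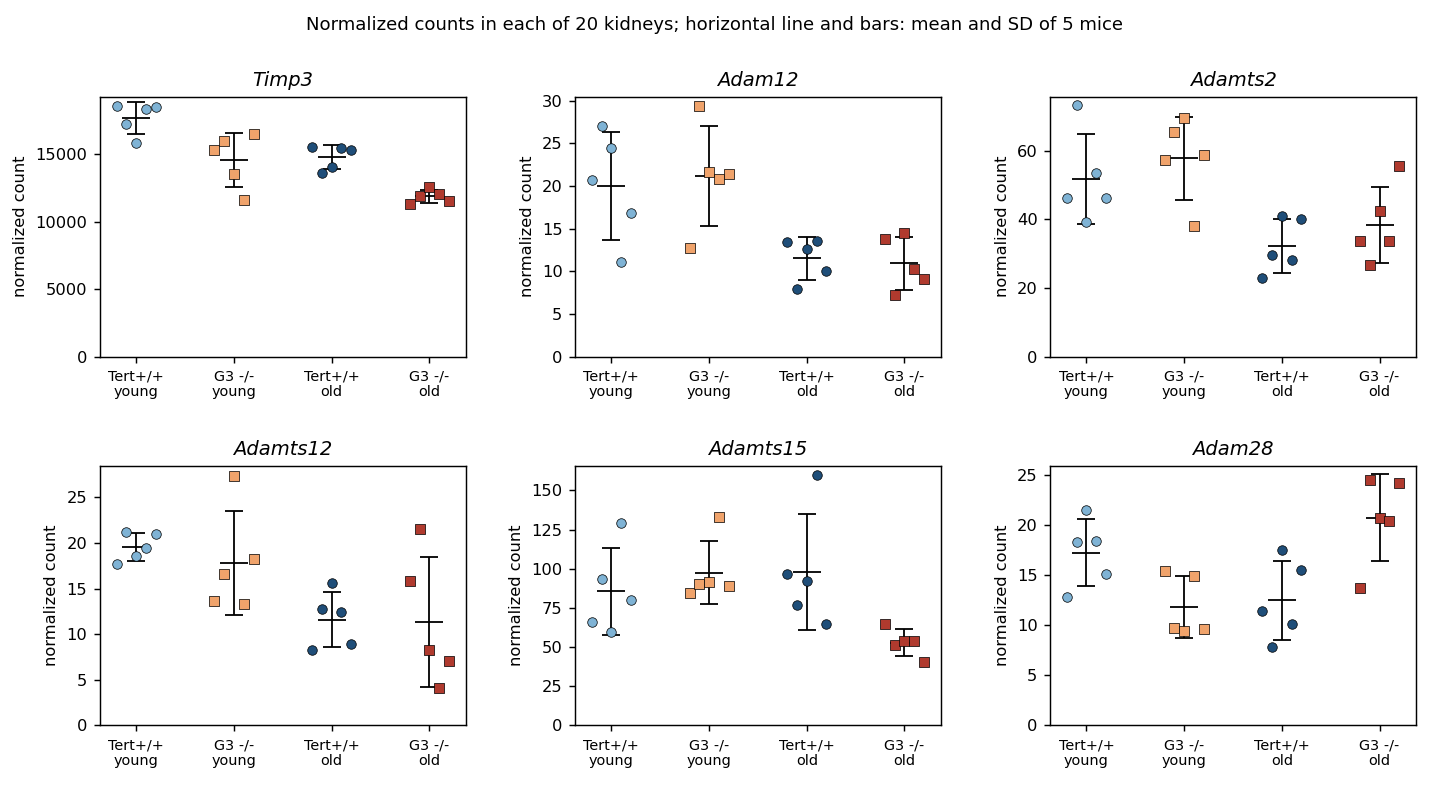
Normalized counts of 6 genes in each of the 20 kidneys, by genotype and age; points are mice, lines and bars the mean and SD of 5. The mean of Timp3 is highest in young Tert+/+ and lowest in old G3 Tert-/- kidneys, Adam12, Adamts2 and Adamts12 are lower in most old kidneys of both genotypes, and Adamts15 is low in all 5 old G3 Tert-/- kidneys.

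Markers of fibroblasts and mural cells, which make much of the kidney matrix, are given beside these genes. All 11 listed markers were present, and their summed level was 2519 to 3703 in young Tert+/+, 2691 to 5373 in young G3 Tert-/-, 1867 to 2442 in old Tert+/+ mice and 1941 to 2524 in old G3 Tert-/- mice. No marker was at 0 in any group. In the averaged age effect 4 of 11 fell (Col1a1, Col1a2, Col3a1 and Dcn, all of them matrix genes), where 2.43% of all tested genes passed as lower. The other 7 did not pass. The median log2 fold change was -0.17, with 8 of 11 lower and 3 higher in old kidneys (49% of all tested genes were lower). In Tert+/+ mice 8 of 11 markers had lower fitted values in old kidneys and 3 higher (49.3% of all tested genes were lower). In G3 Tert-/- mice 7 were lower and 4 higher (49.5% of all tested genes were lower). The part of these cells in the values of Adam12, Adamts2, Adamts12 and Timp3 was not tested. In whole kidney, fewer cells of a type and less RNA per cell cannot be told apart.

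Of 31 listed matrix genes, which code for substrates of these proteases, 17 fell and none rose in the averaged age effect (2.43% of all tested genes passed as lower), with a median log2 fold change of -0.40 against 0.00 over all tested genes. The 4 fibroblast markers that fell are on this list too and are counted among the 17, so the lists are not independent. Fitted values were lower in old mice for 25 of 31 (49% of all tested genes). In Tert+/+ mice 8 fell (0.246% of all tested genes) and 24 of 31 were lower (49.3%), and in G3 Tert-/- mice 10 fell (1.31%) and 26 of 31 were lower (49.5%). Col1a1 and Col3a1, the main fibrillar collagens, had log2 fold changes of -1.48 (SE 0.13, adjusted p = 1.14e-07) and -1.59 (SE 0.17, adjusted p = 2.28e-06). Sparc, a collagen-binding protein, was at -1.03 (SE 0.09, adjusted p = 2.05e-07), and Col4a2, a basement membrane collagen, at -0.71 (SE 0.07, adjusted p = 7.02e-07). Between genotypes no matrix gene passed at 47 weeks (0.0957% of all tested genes did), with 15 higher and 16 lower (47.9% of all tested genes were lower). None passed at 7 weeks (0% of all tested genes did), with 21 higher and 10 lower (49.8% of all tested genes were lower).

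Adamts15, a versican-cutting protease, was the member that passed within a single genotype. It lies on chromosome 9, 30899155 to 30922452 (-), and its neighbour Adamts8 lies 20109 bases away. Counts were 65.9, 93.6, 59.7, 129 and 79.9 in young Tert+/+ and 84.5, 90.0, 91.4, 133 and 89.0 in young G3 Tert-/- kidneys. In old kidneys they were 96.4, 76.8, 92.5, 160 and 64.5 in Tert+/+ and 64.4, 51.2, 54.0, 54.1 and 40.4 in G3 Tert-/- mice. All 5 old G3 Tert-/- kidneys lay below every young G3 Tert-/- kidney and every old Tert+/+ kidney, by a narrow margin in the latter case. Adamts15 fell with age in G3 Tert-/- mice (log2 fold change -0.87, SE 0.22, adjusted p = 0.0359), where the old mean was 0.542 times the young mean. Non-overlap in the lower direction was found for 2.66% of all tested genes there.

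In Tert+/+ mice the Adamts15 log2 fold change with age was 0.18 (adjusted p = 0.825). At 47 weeks it was -0.82 between G3 Tert-/- and Tert+/+ mice (adjusted p = 0.254) and the groups did not overlap; Timp3 was the other such member, and 1.44% of all tested genes were so separated with G3 Tert-/- lower. The genotype groups of no member were separated at 7 weeks (1.4% of all tested genes). The interaction of Adamts15 was -1.04 (SE 0.31, unadjusted p = 0.00276) but had an adjusted p of 0.743, so the age effects of the genotypes were not shown to differ. Leaving out any young G3 Tert-/- library, or any of old G3 Tert-/- replicates 2 to 5, ended the age call (adjusted p up to 0.114). The call held in all other leave-one-out fits and without both libraries that stand apart (adjusted p = 0.00733).

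Adam28, a membrane protease first described in lymphocytes, had genotype differences of opposite sign in young and old mice, and neither passed. Its counts were 12.8, 18.3, 21.5, 18.5 and 15.1 in young Tert+/+ and 15.4, 9.79, 9.42, 14.9 and 9.65 in young G3 Tert-/- kidneys. In old kidneys they were 11.4, 7.88, 17.5, 10.1 and 15.6 in Tert+/+ and 13.7, 24.6, 20.8, 20.4 and 24.2 in G3 Tert-/- mice. Apart from replicate 1, the old G3 Tert-/- kidneys lay above every old Tert+/+ kidney, but they overlapped the young Tert+/+ values. The log2 fold change between genotypes was -0.52 at 7 weeks (adjusted p = 0.471) and 0.71 at 47 weeks (adjusted p = 0.577), and the interaction was 1.23 (SE 0.36, unadjusted p = 0.00221, adjusted p = 0.743). Summed B cell and plasma cell markers had a median of 433 in young Tert+/+, 426 in young G3 Tert-/-, 4996 in old Tert+/+ mice and 1873 in old G3 Tert-/- mice. Summed T cell markers had medians of 49.0, 28.4, 66.4 and 65.7 in the same order. The part of lymphocytes in the Adam28 values was not tested.

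The general sheddases Adam10 and Adam17, which release Notch receptors and tumour necrosis factor among others, differed little. Adam10 means were 256 ± 32.4, 246 ± 35.2, 245 ± 17.9 and 233 ± 24.2 (SD, n = 5) in young Tert+/+, young G3 Tert-/-, old Tert+/+ and old G3 Tert-/- kidneys. Adam17 means were 161 ± 24.7, 163 ± 21.8, 141 ± 11.5 and 163 ± 26.3 in the same order. Neither passed, and all their groups overlapped. Adam15, Adam9 and Adam19, other active members, ranged from 217 to 467, 15.4 to 70.9 and 21.7 to 49.2 over the 20 libraries and did not pass. Adam22, a family member that has lost its catalytic site, was 19.2 ± 4.19 in young Tert+/+ and 27.7 ± 8.89 in young G3 Tert-/- kidneys (log2 fold change 0.48, adjusted p = 0.451).

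Among the tested Mmp genes no value passed in any comparison. Mmp14, the membrane-anchored collagenase that activates Mmp2, was 114 ± 25.4 in young Tert+/+, 129 ± 12.4 in young G3 Tert-/-, 106 ± 16.3 in old Tert+/+ mice and 118 ± 11.2 in old G3 Tert-/- mice. Mmp2, a gelatinase of stromal cells, was 29.9 ± 10.6, 30.6 ± 12.7, 23.1 ± 4.03 and 25.7 ± 7.02 in the same order. Averaged over genotypes, the age effect was -0.10 for Mmp14 (interval -0.32 to 0.11) and -0.24 for Mmp2 (interval -0.65 to 0.17). Mmp13, an interstitial collagenase, was 6.51 ± 4.73 in young Tert+/+, 9.70 ± 1.17 in young G3 Tert-/-, 9.63 ± 2.47 in old Tert+/+ mice and 7.17 ± 5.76 in old G3 Tert-/- mice (interaction -1.33, adjusted p = 0.793). Mmp15, another membrane-anchored enzyme, had a genotype effect of 0.53 at 47 weeks (adjusted p = 0.835).

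The secreted proteoglycan proteases Adamts1, Adamts4 and Adamts5 did not pass either. Adamts1 was 238 ± 49.2 in young Tert+/+, 253 ± 67.4 in young G3 Tert-/-, 213 ± 49.1 in old Tert+/+ mice and 256 ± 102 in old G3 Tert-/- mice, the last group including 1 kidney at 428. Adamts5 ranged from 239 to 421 and Adamts4 from 4.15 to 25.9 over the 20 libraries. The Adamts4 interaction was 0.75 (adjusted p = 0.855). Adamts16, 2785099 bases from Tert on chromosome 13, was 5.67 ± 3.16 and 9.78 ± 4.46 in young Tert+/+ and G3 Tert-/- kidneys and 9.05 ± 3.33 and 14.7 ± 5.64 in old ones. Its averaged genotype effect was 0.66 (adjusted p = 0.408).

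Of the 23 members under the filter, 2 passed for age when all 19940 genes were fitted (3.43% of those genes passed), 1 in each direction and again in the averaged contrast added after the data were seen. Adamts8, a secreted protease, was 5.68 ± 4.16 in young Tert+/+ and 2.99 ± 1.68 in young G3 Tert-/- kidneys, against 0.627 ± 0.575 and 0.819 ± 0.856 in old ones (log2 fold change -1.54, SE 0.33, adjusted p = 0.0071). Its young and old Tert+/+ values did not overlap (1.02% of the 19940 genes did so with old mice lower). The call held in each of the 20 leave-one-out fits (adjusted p from 0.00356 to 0.0173). Mmp12, the macrophage elastase, was 3.39 ± 1.35 and 3.32 ± 3.57 in young kidneys and 6.15 ± 2.83 and 9.70 ± 3.12 in old kidneys of Tert+/+ and G3 Tert-/- mice (1.15, SE 0.32, adjusted p = 0.0422). The Mmp12 call held in 6 of 20 leave-one-out fits, those without young Tert+/+ replicate 1 or 2, young G3 Tert-/- replicate 3, old Tert+/+ replicate 1 or 4, or old G3 Tert-/- replicate 5, and was lost in the others (adjusted p up to 0.0927). The summed macrophage markers had medians of 1275 and 1115 in young and 1555 and 1558 in old Tert+/+ and G3 Tert-/- kidneys; their part in the Mmp12 values was not tested.

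Mmp7, an epithelial protease often induced in scarred kidney, was listed at 0 in all 5 young Tert+/+ kidneys and in 4 of 5 young G3 Tert-/- kidneys. In old kidneys it was 0, 4.93, 3.89, 2.25 and 3.34 in Tert+/+ and 2.11, 0, 0, 0 and 3.03 in G3 Tert-/- mice. The averaged age effect did not pass (adjusted p = 0.0908). Over 5 libraries these values come from 0 reads in young and 14 in old Tert+/+ kidneys. In G3 Tert-/- kidneys they come from 1 read when young and 5 when old. A listed 0 means no read, which in 1 library still allows an expected level of up to about 3 reads. Mmp9, Mmp3 and Adam8, made by leukocytes or stroma in injury, reached at most 13.7, 5.91 and 7.39 in any library and did not pass.

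**Figure D4:**
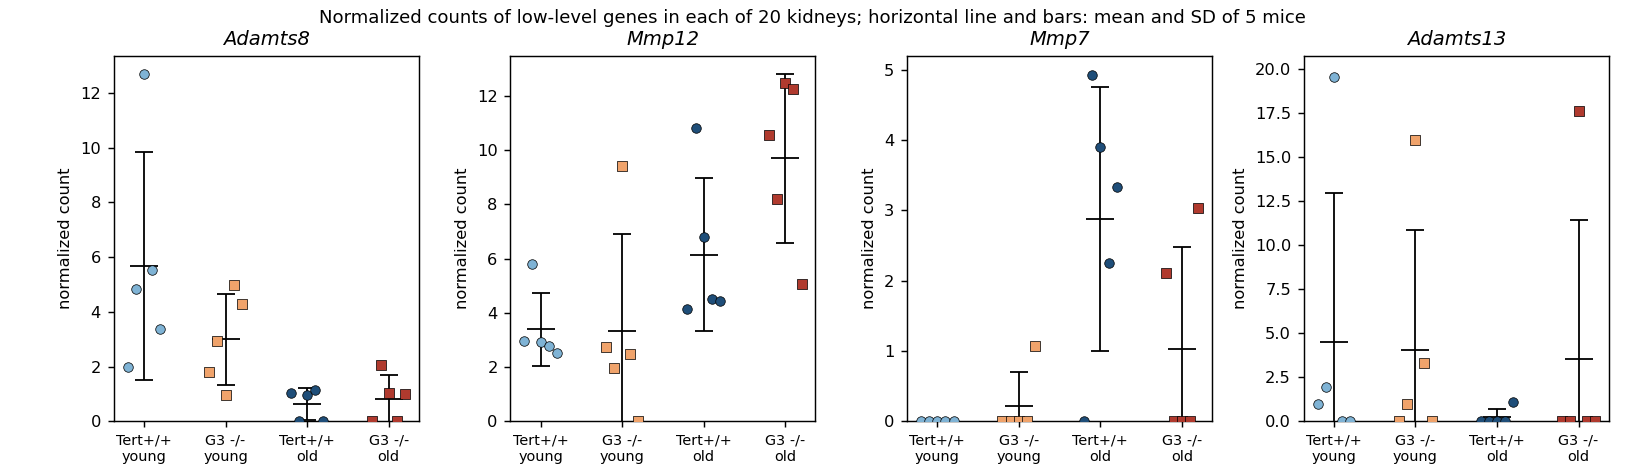
Normalized counts of Adamts8, Mmp12, Mmp7 and Adamts13 in each of the 20 kidneys; points are mice, lines and bars the mean and SD of 5. Adamts8 is near 0 in old kidneys, Mmp12 has higher means in old kidneys, Mmp7 is at 0 in 9 of 10 young kidneys and Adamts13 is high in 1 kidney of each of 3 groups.

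Other proteases and regulators gave a mixed pattern with age. Of 10 tested activators of protease precursors, Pcsk6, a proprotein convertase, rose (log2 fold change 0.82, adjusted p = 0.0098) and Hpn, a tubular serine protease, fell (-0.31, adjusted p = 0.0115) in the averaged age effect, where 2.06% of all tested genes passed as higher and 2.43% as lower. Of 7 tested inhibitors other than Timp genes, Tfpi2 fell (-1.13, adjusted p = 0.0047) and Serpine2 rose (0.38, adjusted p = 0.0143). Pzp, a broad protease trap, fell in old G3 Tert-/- against old Tert+/+ kidneys (-0.95, SE 0.18, adjusted p = 0.0238; 0.082% of all tested genes passed as lower there). Of 13 other zinc proteases, Ace, the angiotensin-converting enzyme, and Dpep1, a brush-border dipeptidase, fell in the averaged age effect (-0.54, adjusted p = 0.00193, and -0.39, adjusted p = 0.0222) and within G3 Tert-/- mice (-0.83, adjusted p = 0.00158, and -0.56, adjusted p = 0.0347). Among 24 tested membrane proteins that these enzymes release, Cdh1, the epithelial cadherin, rose in the averaged age effect (0.39, adjusted p = 0.0222). L1cam, a cell adhesion protein, rose with age in G3 Tert-/- mice (0.69, adjusted p = 0.0213), where 0.93% of all tested genes passed as higher. None of the 24 fell in either contrast.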

How the data were processed

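Sense-stranded 3′ libraries (QuantSeq) were made from 300 ng of total RNA, and RNA quality scores averaged 6.6 (5.0 to 7.5), per the labels' protocols. The values are a deposited signal, a normalized count that the authors obtained by dividing reads per gene by 1 factor for each library; this follows from the table's name and from values that are whole multiples of 1 step (relative tolerance 1e-06). The submitters' processing notes name the build GRCm38 and, without roles, DESeq2, FastQC 0.11.7, HTSeq 0.6.1, SAMtools 0.1.19, Bowtie 1.0.0 and TopHat2 2.0.10. The counting annotation is not stated there.

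Groups came from the labels and replicate numbers from accession order. Genes at 10 or more in at least 5 libraries were kept. log2(normalized count + 1) was fitted with limma 3.58.1 in R 4.3.3 (eBayes with trend) as 4 group means over all 20 libraries, with two-sided tests, Benjamini-Hochberg adjustment over all tested genes and a threshold of 0.05. Fold changes on this scale understate those of low genes. The fit was run on simulated data for genotype in old mice and age in G3 Tert-/- mice only. The averaged contrasts were not simulated. edgeR 4.0.16 and DESeq2 1.42.0 on recovered reads, other filters, pseudocounts and scalings, and fits without single libraries were alternatives. The genes and lists were chosen with earlier results of these data known. Named genes are those that passed, all Timp genes, the 5 smallest p per comparison and a panel of kidney proteases; Adamts8, Adamts13, the averaged contrasts and the fits without both libraries that stand apart were chosen after values were seen. Coordinates are from GENCODE M21.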

Additional observations from a re-analysis of the deposited data

Results flagged for a closer look

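In 13 of the 123 groups of 5 kidneys examined, 1 kidney lay far from the other 4. The cutoff flags about 1 in 20 groups of independent, normally distributed values. These groups share the same kidneys and some hold only a few reads, so that rate is no yardstick for the 13. Adamts15 stood at 132.9 in young G3 Tert-/- replicate 4, above 84.5 to 91.4 in the others, and without it the log2 fold change with age in that genotype was -0.75. Adam15 reached 467.3 in old Tert+/+ replicate 4, a library that stands apart as a whole, where the next was 310.6. In old Tert+/+ replicate 2, Adamts4 was 21.7 (next 9.01), Adamts16 was 14.8 (next 8.76) and Mmp3 was 5.91 (next 1.13). In old G3 Tert-/- mice, Adamts16 was 5.05 in replicate 5 (others at least 15.3), Timp1 was 12.1 in replicate 5 (next 7.39) and Adam33 was 14.3 in replicate 2 (next 10.6). In young G3 Tert-/- mice, Adam33 was 1.82 in replicate 1 (others at least 9.65), Mmp12 was 9.42 in replicate 3 (next 2.73) and Mmp7 was 1.07 in replicate 5 (all others 0). In young Tert+/+ mice, Mmp12 was 5.79 in replicate 2 (next 2.95) and Timp1 was 1.97 in replicate 1, which also stands apart as a whole (others at least 8.41).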

How the results depend on the processing

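Of 1068 recomputed gene values under the alternatives, 1028 kept their direction and their side of the threshold, 36 lost a call (Mmp12 with no filter among them), 4 gained one and 0 reversed. In G3 Tert-/- mice with age, DESeq2 called 2 members (Adamts15 and Timp3) where limma called 1, and fits without 1 library called 0 to 1. For the averaged genotype effect DESeq2 called 1 member (Timp3) where limma called 0; for the averaged age effect fits without 1 library called 2 to 3. Without both libraries that stand apart, Adamts15 also passed in the averaged age effect (-0.48, adjusted p = 0.0368), which gave 4 members. Adamts12 passed there in 2 of 20 fits without 1 library. Over all tested genes, DESeq2 called 52 against 14 for genotype at 47 weeks, 13 against 0 at 7 weeks, 211 against 95 for age in Tert+/+, 530 against 327 for age in G3 Tert-/-, 7 against 1 for the interaction and 56 against 4 for the averaged genotype effect. Fits of only the groups compared called 6 for genotype at 47 weeks and 53 for age in Tert+/+, and the fit without both libraries called 664 for age in G3 Tert-/- and 0 for the interaction. Fits without 1 library ranged from 2 to 19, 0 to 2, 56 to 124, 192 to 501, 0 to 2 and 0 to 7 in the order of the DESeq2 counts. The causes were not tested. No paired analysis was possible because replicate numbers follow accession order only. Depth limits the low members: a count of 0 in 1 library allows an expected level of up to about 3 reads.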

Other observations

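Adamts13, which cuts von Willebrand factor, was present in 3 kidneys and nearly absent from the others. It was 19.6 in young Tert+/+ replicate 3, 16.01 in young G3 Tert-/- replicate 3 and 17.7 in old G3 Tert-/- replicate 3, against 0 to 3.32 in the other 17 kidneys. Replicate numbers only name libraries, so the shared number has no meaning in the labels.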
